A study of Mus musculus with 18 samples.

Results

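The NOD-like receptor set described here holds 10 of the 22708 genes in the expression table: Nod1, Nod2, Nlrp1a, Nlrp1b, Nlrp3, Nlrp6, Nlrp12, Nlrc3, Nlrc4 and Nlrc5. They were chosen by gene symbol as innate sensors of the NOD-like family, and each of the 10 symbols was found in the table. The study sequenced RNA of small-intestinal eosinophils from mice that lack the aryl hydrocarbon receptor (AHR), a transcription factor switched on by dietary, microbial and environmental ligands, or its repressor AHRR, which is encoded by an AHR target gene. Mice labelled as strain C57/BL6 were WT, Ahr-/- or Ahrr-/-, with 6 samples of each genotype, 3 from females and 3 from males. Cells were enriched with anti-CD11b beads, sorted as CD11b+ MHC-II- SiglecF+ SSChi events and made into 1 bulk library per sample. In the comparison of Ahr-/- with WT, genotype cannot be told apart from litter or cage, since the groups shared neither. The study does not state litter or cage for the Ahrr-/- mice, so this limit may also hold for the comparisons that use them. Samples are named by genotype and by the sex and number in their labels, F1 to F3 and M1 to M3.

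Some libraries stood apart before any receptor was compared. Total counts ran from 3842977 to 8149200 in WT, from 6581818 to 10284124 in Ahr-/- and from 8788867 to 12046933 in Ahrr-/- libraries. WT F3 had the smallest total, 3842977, yet counts in 20244 genes, and Ahr-/- F3 had counts in 19694 genes, whereas the remaining libraries had counts in 15146 to 17236. The 13 listed enterocyte markers, all present and none at 0 in any library, also set some libraries apart. Their summed normalised count, which is the count divided by the size factor of the library, was 19623 in WT F1, 5418 in F2, 8658 in F3, 9386 in M1, 8042 in M2 and 13102 in M3. In Ahr-/- it was 4836 in F1, 3773 in F2, 9152 in F3, 9000 in M1, 10203 in M2 and 6785 in M3. In Ahrr-/- it was 6272 in F1, 6309 in F2, 28345 in F3, 32408 in M1, 15162 in M2 and 30825 in M3. Sis, Krt19 or Cdh17 was the most abundant marker. WT F1 and the F3, M1, M2 and M3 libraries of Ahrr-/- therefore had the 5 highest sums, and fits without these 5 libraries, or with the sum as a covariate, are given beside receptor results below. Both of these alternatives were chosen after seeing the data.

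The sorted cells carried surface and enzyme transcripts of eosinophils, with Siglecf, Ccr3 and Il5ra at 0 in none of the libraries, and few transcripts of the peroxidase gene Epx. The 11 listed eosinophil markers summed to 24897 to 38234 in WT, 38567 to 49623 in Ahr-/- and 14354 to 38814 in Ahrr-/- libraries, with Alox15 the most abundant in every library. Epx averaged 10.9, 10.4 and 9.30 normalised counts in WT, Ahr-/- and Ahrr-/-, and Ear6 was at 0 in 16 of 18 libraries. The 12 listed neutrophil markers summed to 24284 to 49049 in WT, 56090 to 113776 in Ahr-/- and 24546 to 45821 in Ahrr-/-. Retnlg made up most of that sum in each library, while Ly6g was at 0 in 13, Mpo in 14 and Elane in 17 of 18 libraries. S100a8, S100a9 and Cxcr2 of the same list were at 0 in none, with means of 102, 189 and 500 normalised counts in WT, 199, 338 and 852 in Ahr-/- and 642, 1031 and 746 in Ahrr-/-. In bulk samples such as these, fewer cells of a type and less RNA per cell cannot be told apart.

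NOD-like receptors are cytosolic proteins with a central nucleotide-binding domain and leucine-rich repeats that report microbial products or cell damage. NOD1 and NOD2 bind peptidoglycan fragments and signal through the kinase RIPK2 to NF-kB, whereas NLRP1, NLRP3 and NLRC4 build inflammasomes that activate caspase-1, which matures IL-1β and IL-18 and cuts gasdermin D. NLRP12 and NLRC3 are known mainly as brakes on inflammatory signalling, NLRC5 is a transactivator of MHC class I genes, and NLRP6 is best known from the epithelium of the gut.

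On the GRCm38 build the receptors lie on 6 chromosomes. Nod1 (Entrez 107607) lies on chromosome 6, and Nod2 (257632) and Nlrc5 (434341) on chromosome 8. Nlrp1a (195046) spans 71092236 to 71144704 and Nlrp1b (637515) 71153102 to 71230733 on the minus strand of chromosome 11, so that these paralogues sit side by side, and Nlrp3 (216799) lies on the same chromosome. Nlrp6 (101613) and Nlrp12 (378425) lie on chromosome 7, Nlrc3 (268857) on 16 and Nlrc4 (268973) on 17. Reads of 75 bases separate the receptors well: 0.650% of the 75-base windows of Nlrp1a and 0.445% of those of Nlrp1b also occurred in the other, and 0.426% of those of Nlrc3 occurred in Siglec1. The other 7 receptors shared no window with another gene. Nlrc5 overlaps the antisense transcript 9330175E14Rik over 78 exon bases, where the reads of the pair cannot be told apart.

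Promoters of the 4 receptors that rose in Ahr-/- eosinophils, and of Nlrp6, were read to show which hold the GCGTG core that AHR binds. The RefSeq promoter table on GRCm38.p6 holds windows from 250 bases before to 50 bases after a start for 9 of the 10 receptors, and not for Nlrc5. GCGTG, searched on both strands, is common: 32.4% of the 32851 promoters hold it. The 250 bases before the start are printed 5′ to 3′ on the strand of the gene, with GCGTG or its reverse complement in capitals. They are Nod1 at chr6:54971662-54971911 (minus strand, the second of 2 windows, before a start inside the gene), Nlrp12 at chr7:3249741-3249990 (minus), Nlrp6 at chr7:140920652-140920901 (plus), Nlrp1a at chr11:71144705-71144954 (minus) and Nlrp1b at chr11:71230734-71230983 (minus, the first of 2 windows).
Nod1: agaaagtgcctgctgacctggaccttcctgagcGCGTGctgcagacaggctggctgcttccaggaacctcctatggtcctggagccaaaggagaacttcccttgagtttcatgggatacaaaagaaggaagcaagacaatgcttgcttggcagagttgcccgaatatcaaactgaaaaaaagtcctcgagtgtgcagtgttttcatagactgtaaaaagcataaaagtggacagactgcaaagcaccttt
Nlrp12: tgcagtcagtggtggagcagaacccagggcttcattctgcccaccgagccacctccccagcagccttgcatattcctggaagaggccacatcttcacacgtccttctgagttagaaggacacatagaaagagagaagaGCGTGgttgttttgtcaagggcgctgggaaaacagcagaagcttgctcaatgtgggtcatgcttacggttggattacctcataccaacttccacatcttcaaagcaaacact
Nlrp6: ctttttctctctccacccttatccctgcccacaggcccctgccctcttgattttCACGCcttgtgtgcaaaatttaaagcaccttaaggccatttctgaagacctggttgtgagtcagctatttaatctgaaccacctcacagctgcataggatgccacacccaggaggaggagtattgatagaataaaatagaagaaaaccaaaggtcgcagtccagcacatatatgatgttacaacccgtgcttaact
Nlrp1a: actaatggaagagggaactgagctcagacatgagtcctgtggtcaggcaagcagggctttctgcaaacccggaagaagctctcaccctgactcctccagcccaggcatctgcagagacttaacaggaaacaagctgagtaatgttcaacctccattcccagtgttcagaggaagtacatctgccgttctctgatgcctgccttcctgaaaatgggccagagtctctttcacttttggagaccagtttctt
Nlrp1b: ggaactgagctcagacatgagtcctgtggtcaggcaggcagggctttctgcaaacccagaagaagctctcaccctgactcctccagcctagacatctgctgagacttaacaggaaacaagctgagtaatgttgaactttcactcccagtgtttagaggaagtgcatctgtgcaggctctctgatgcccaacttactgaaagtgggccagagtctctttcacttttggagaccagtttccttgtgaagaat
The core lies 217 bases before the start in this Nod1 window, 112 before that of Nlrp12 and 196 before that of Nlrp6, and it is in none of the other 9 receptor windows. The first Nod1 window, at chr6:54972613-54972862 before the annotated start of the gene, is among those without it. Nlrp6 also holds the AP-1 motif TGANTCA 140 bases before its start, a motif in 7.81% of all promoters. An NF-kB consensus, in 4.51% of all promoters, lies 186 bases before the start in the second Nlrp3 window. A match describes the letters only, and no binding was measured.

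In the WT libraries the receptors differed widely in level per length, given here as the mean normalised count per kb of exon over 6 libraries. Nlrp1b stood highest at 113 ± 25.7 (SD) per kb, followed by Nlrp12 at 108 per kb (range 93.6 to 121). Nod2 had 70.3 ± 17.0, Nlrp1a 66.8 ± 17.7, Nod1 59.3 ± 7.81 and Nlrp6 50.0 ± 31.9 per kb. These 6 ranges overlapped from each receptor to the next. Within libraries Nlrp12 lay above Nod2 in 6 of 6 and Nod1 above Nlrp6 in 5 of 6. The other steps were looser: Nlrp1b lay above Nlrp12 in 4, Nod2 above Nlrp1a in 3 and Nlrp1a above Nod1 in 4 of 6. Nlrc4 had 36.2 ± 13.6 per kb, and Nlrc5 (8.98 ± 4.53), Nlrp3 (8.92 ± 4.39) and Nlrc3 (6.70 ± 2.47) were lowest. Of the 9 neighbouring pairs in this order of levels per kb, only Nlrc4 and Nlrc5 had ranges that did not overlap, 24.6 to 63.0 against 4.84 to 15.6 per kb. Among tested genes, the WT levels per kb ran from the 76.0 percentile for Nlrp1b to the 7.73 percentile for Nlrc3. Nlrp6 was highest in WT F1 (111 per kb) and lowest in F2 (22.7), the WT libraries of highest and lowest enterocyte sum. Nlrc4 was highest in WT F1 too, at 63.0, and lowest in M1, at 24.6. The part of enterocyte RNA in these levels was not tested.

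**Figure D1:**
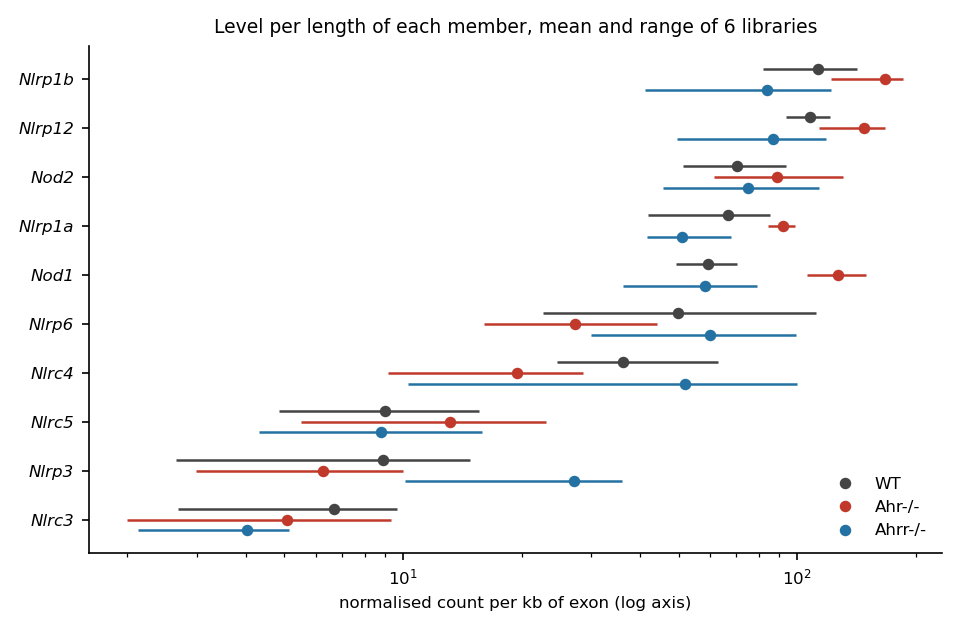
Level of each receptor as normalised count per kb of exon on a log axis, with points for the mean of 6 libraries and lines from the lowest to the highest library, for WT, Ahr-/- and Ahrr-/-. In WT the means run from 6.70 per kb for Nlrc3 to 113 per kb for Nlrp1b, and the Ahr-/- range of Nod1, 106 to 150, lies above its WT range, 49.2 to 70.5.

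The knockouts were read first from the targeted genes. All values by sample are variance-stabilised log2 levels, on which a count of 0 stands at the lowest value of the table, 5.0212. The Ahr transcript was at 13.52, 14.26, 13.78, 14.40, 13.74 and 13.40 in WT (F1 to F3, then M1 to M3) and at 14.56, 14.63, 14.22, 14.55, 14.67 and 14.15 in Ahr-/- libraries. In Ahrr-/- it was at 14.42, 14.17, 13.24, 13.46, 13.56 and 13.03. The Ahr transcript was thus not lower in Ahr-/- libraries, where a difference of 0.61 from WT had an adjusted p of 0.0557 in limma (6 of 6 libraries above the WT mean), and a count per gene does not show whether a transcript is intact. Ahrr, a direct AHR target, was at 9.79, 10.04, 10.23, 10.09, 10.39 and 10.14 in WT while the counts in Ahr-/- were 0, 1, 10, 0, 2 and 1, with levels of 5.26 in F2, 5.79 in F3, 5.37 in M2, 5.24 in M3 and the lowest value in F1 and M1. It fell by 4.83 on this scale in Ahr-/- (adjusted p 4.95e-12, 6 of 6 libraries), a value bounded by the floor of the scale. The mean normalised count was 2.16 against 1053, and the difference by voom was -9.51. In Ahrr-/- libraries the Ahrr transcript was at 10.93, 10.63, 10.11, 9.95, 10.65 and 10.10, a difference of 0.28 from WT (adjusted p 0.683, 3 of 6 above), so that the transcript count does not mark that knockout.

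Among the peptidoglycan sensors, Nod1 lay between 8.28 and 8.72 in WT (median 8.47), between 9.23 and 9.69 in Ahr-/- (median 9.41) and between 7.93 and 8.85 in Ahrr-/- libraries (median 8.42). Every Ahr-/- library was above every WT and every Ahrr-/- library, while WT and Ahrr-/- overlapped. Nod2 lay between 8.31 and 9.06 in WT (median 8.66), between 8.53 and 9.49 in Ahr-/- (median 8.90) and between 8.18 and 9.30 in Ahrr-/- (median 8.72). For Nod2 all 3 genotypes overlapped.

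The inflammasome sensors split by genotype in different ways. Nlrp1a ran from 7.88 to 8.71 in WT (median 8.50), from 8.69 to 8.89 in Ahr-/- (median 8.80) and from 7.87 to 8.43 in Ahrr-/- (median 8.001). Its Ahr-/- libraries spanned 0.19, the narrowest range of any receptor and genotype, and lay above all Ahrr-/- libraries, while WT M1 at 8.71 reached into them. WT F1 at 7.88 and F2 at 8.04 were the low WT libraries. Nlrp1b ran from 9.18 to 9.90 in WT (median 9.63), from 9.70 to 10.27 in Ahr-/- (median 10.21) and from 8.33 to 9.70 in Ahrr-/- (median 9.12). Only Ahr-/- F3, at 9.70, lay within the WT range of Nlrp1b. Nlrp3 ran from 5.84 to 6.85 in WT (median 6.49), from 5.89 to 6.56 in Ahr-/- (median 6.22) and from 6.57 to 7.69 in Ahrr-/- (median 7.50). The 5 Ahrr-/- libraries other than M1, at 6.57, were above every WT library.

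Nlrc4, the partner of the NAIP sensors of flagellin and secretion needles, ran from 7.47 to 8.51 in WT (median 7.77), from 6.62 to 7.62 in Ahr-/- (median 7.15) and from 6.70 to 9.09 in Ahrr-/- (median 8.41). Its high libraries were WT F1 at 8.51 and, in Ahrr-/-, F3 at 8.58, M1 at 8.57, M2 at 8.25 and M3 at 9.09, against 7.15 and 6.70 in the other Ahrr-/- libraries. Nlrp6 ran from 7.44 to 9.30 in WT (median 8.05), from 7.12 to 8.15 in Ahr-/- (median 7.51) and from 7.73 to 9.15 in Ahrr-/- (median 8.45). The same 5 libraries, those with the highest enterocyte sums, were at 9.30 in WT F1 and at 8.84, 8.59, 8.30 and 9.15 in F3, M1, M2 and M3 of Ahrr-/-. WT M3, at 8.36 with a sum of 13102, lay slightly above Ahrr-/- M2, at 8.30 with a sum of 15162. At the low end, Ahr-/- F2 had the lowest sum, 3773, and the lowest Nlrp6 value, 7.12. The part of enterocyte RNA in the Nlrp6 values was not tested. For both receptors the genotypes overlapped.

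**Figure D2:**
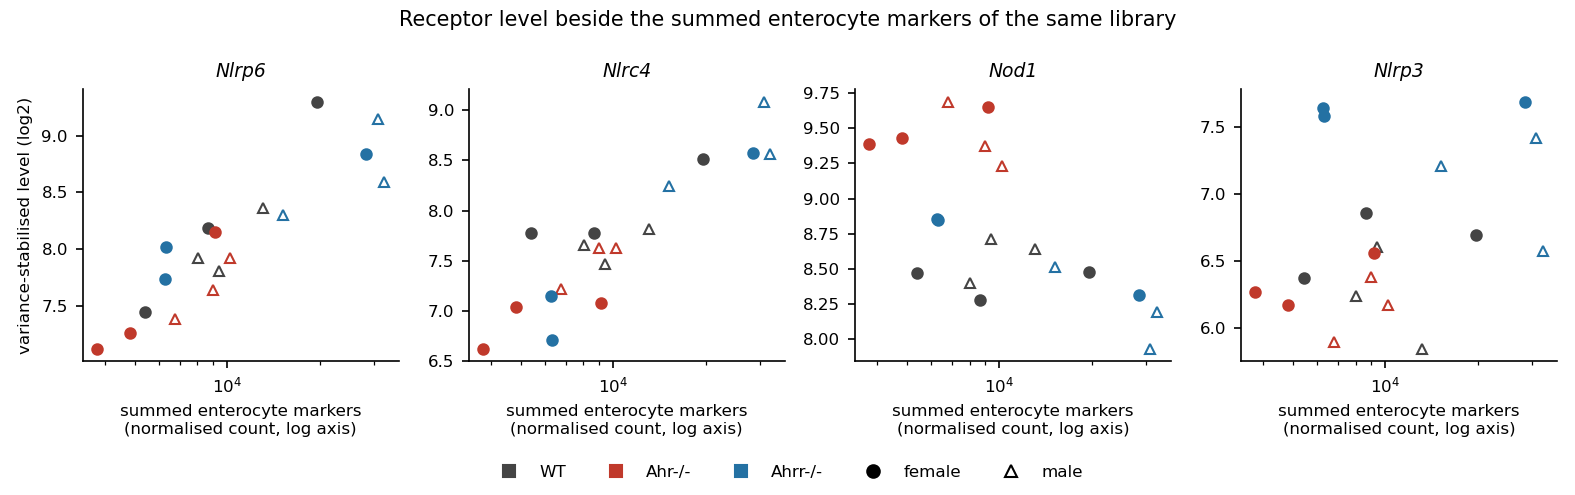
Variance-stabilised log2 level of Nlrp6, Nlrc4, Nod1 and Nlrp3 in each of the 18 libraries (vertical) against the summed normalised count of 13 enterocyte markers in the same library (horizontal, log axis), coloured by genotype, circles for females and triangles for males. WT F1, with a sum of 19623, holds the highest WT values of Nlrp6 and Nlrc4 (9.30 and 8.51), whereas the 6 Ahr-/- libraries hold the 6 highest Nod1 values at sums of 3773 to 10203.

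Among the receptors known as brakes or transactivators, Nlrp12 ran from 9.59 to 9.93 in WT (median 9.78), from 9.84 to 10.37 in Ahr-/- (median 10.26) and from 8.77 to 9.90 in Ahrr-/- (median 9.47). The lowest Ahr-/- library, F3 at 9.84, was the only one within the WT range. Nlrc3 stayed between 6.10 and 6.96 in WT (median 6.65), 5.96 and 6.94 in Ahr-/- (median 6.31) and 5.99 and 6.48 in Ahrr-/- (median 6.33). Nlrc5 was between 6.57 and 7.59 in WT (median 6.87), 6.66 and 8.01 in Ahr-/- (median 7.31) and 6.49 and 7.60 in Ahrr-/- (median 7.03). Both of these low transcripts overlapped in all 3 genotypes.

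**Figure D3:**
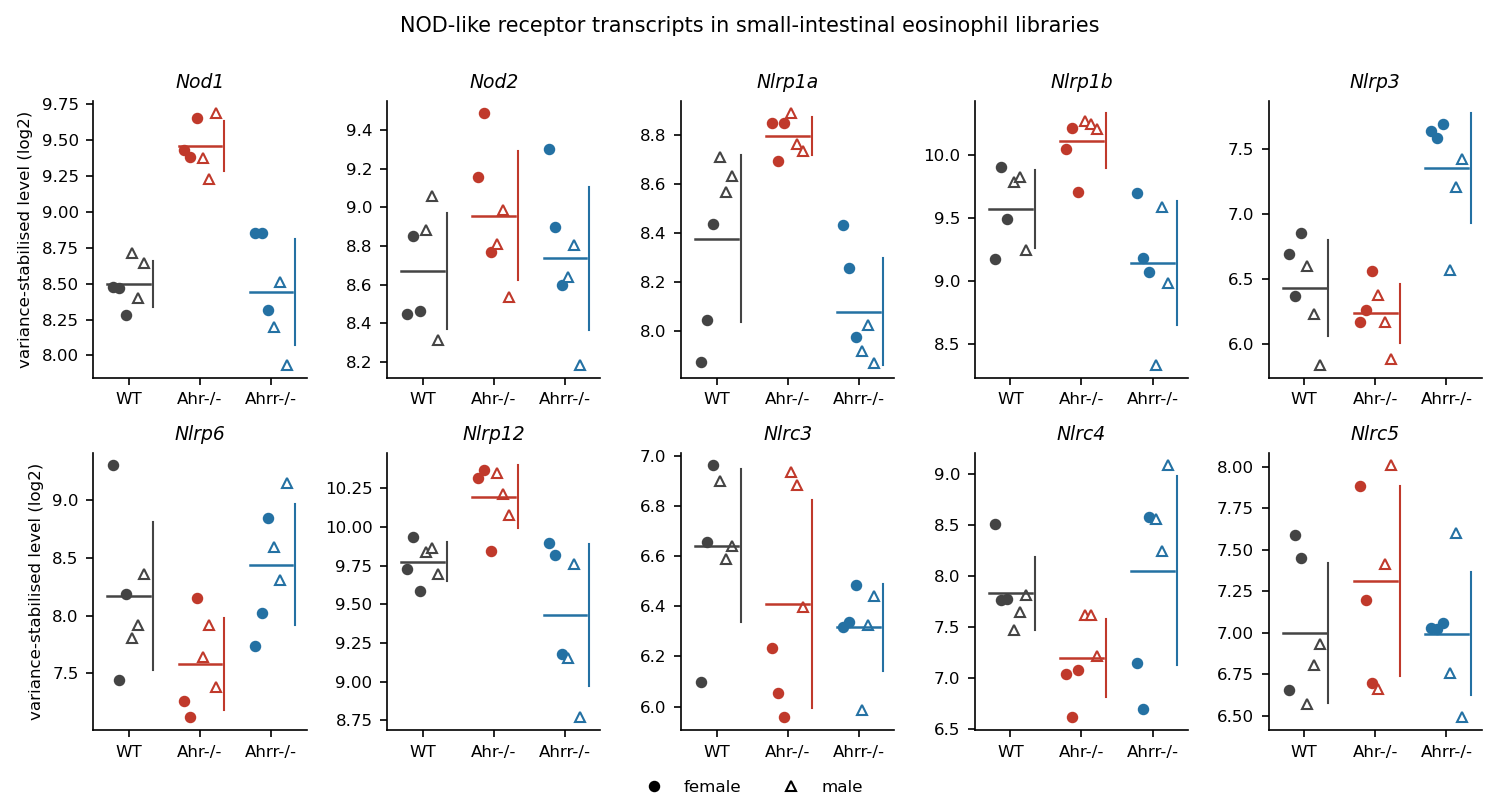
Variance-stabilised log2 level of the 10 receptors in 18 libraries, by genotype, circles for females and triangles for males, with horizontal lines for means and vertical lines for ± 1 SD of 6 libraries. The 6 Ahr-/- values of Nod1, 9.23 to 9.69, lie above all others, and 5 of 6 Ahrr-/- values of Nlrp3 lie above the WT range of 5.84 to 6.85.

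The first comparison asked what eosinophils without AHR express differently from WT cells. The cytosolic peptidoglycan sensor Nod1 rose most, to 645 from 301 normalised counts on average, and the inflammasome sensors Nlrp1a and Nlrp1b and the brake Nlrp12 rose less. Altogether 4 of 10 receptors passed the threshold, an adjusted p below 0.05 in limma with sex as a covariate, and all 4 were higher in Ahr-/-. Of all genes, 8.84% of the 11346 tested passed, 585 higher and 418 lower, 1003 in all. The median difference of the 10 receptors was 0.30 on the log2 scale, and that of all tested genes -0.0041. All p-values rest on mice as replicates, as the labels give them.

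Nod1 was higher by 0.96 in Ahr-/- (SE 0.11, 95% interval 0.73 to 1.19, adjusted p 2.48e-05, 6 of 6 libraries above the WT mean). It was the only 1 of the 10 receptors whose groups did not overlap, where 4.51% of tested genes, 512, did so. Nod1 passed in all 24 alternative fits, with differences of 0.88 to 1.10 and adjusted p from 1.65e-05 to 0.000412. With the enterocyte sum as covariate its difference was 0.97, and without WT F1, the 1 library of this comparison among the 5 with high sums, 0.96. Over the 18 libraries the genes whose levels followed Nod1 most closely among 11468 genes were Atp13a2 (Pearson r 0.966), Osgin2 (0.957) and Serpina11 (0.949), a description without a test.

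The NLRP1 paralogues rose together. Nlrp1b was higher by 0.54 (interval 0.25 to 0.84, adjusted p 0.0222) and Nlrp1a by 0.42 (0.16 to 0.68, adjusted p 0.0442), each in 6 of 6 libraries. Nlrp12 was higher by 0.42 (0.19 to 0.65, adjusted p 0.0236, 6 of 6). Nlrp1b passed in 21, Nlrp12 in 17 and Nlrp1a in 7 of 24 alternatives. With all 18 libraries in 1 fit Nod1 alone passed, and the adjusted p was 0.127 for Nlrp1b, 0.176 for Nlrp12 and 0.0985 for Nlrp1a. Nlrp1a also missed the threshold by voom (0.0510), with no minimum mean (0.0810), with no sex covariate (0.0760), with a replicate block (0.0682) and without the F3 libraries of WT and Ahr-/- (0.0908). Leaving out single libraries ended calls of all 3, unlike that of Nod1. Nlrp1b missed the threshold without Ahr-/- F1 (adjusted p 0.0524) or F2 (0.0583), within a range of 0.00529 to 0.127 over its 24 alternatives. Nlrp12 missed it without WT F3 (0.0605), WT M3 (0.0527) or Ahr-/- F1 (0.0705), F2 (0.0651) or M1 (0.0549), within 0.00773 to 0.176. Nlrp1a missed it without WT F1 (0.0784), F2 (0.0757), M2 (0.0615) or M3 (0.0555), and without Ahr-/- F1 (0.117), F2 (0.0907), F3 (0.0978), M1 (0.0690) or M3 (0.0508), within 0.0337 to 0.117. With the enterocyte sum as covariate Nlrp1b still passed (0.37, adjusted p 0.0437), and Nlrp12 (0.34, 0.0524) and Nlrp1a (0.36, 0.0917) did not.

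The genes nearest in profile to the other risen receptors were listed in the same way. Nlrp1b followed Naip5 (r 0.967), Adcy7 (0.964) and A630001G21Rik (0.957) over 18 libraries. Nlrp1a followed Zzz3 (0.926), Sirpb1a (0.914) and 9130015A21Rik (0.901), and Nlrp12 followed Lrrk2 (0.949), Plcb2 (0.946) and Myo1f (0.943). Nod2, included as 1 of the 3 receptors highest per kb in WT, followed Arrdc3 (0.897), Fam174a and Rab11a (both 0.887).

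The other 6 receptors did not pass in Ahr-/- against WT. Nlrc4 came closest, with a difference of -0.63 (interval -1.04 to -0.23, 6 of 6 libraries below the WT mean) and an adjusted p of 0.05001. It passed in 6 of 23 alternatives, among them median centring (0.0448), quantile normalisation (0.0471) and the fits without WT M1 (0.0281), Ahr-/- M1 (0.0407) or Ahr-/- M2 (0.0398), over a range of 0.0281 to 0.261. Nlrp6 differed by -0.59 (-1.14 to -0.04, adjusted p 0.181, 6 of 6 below). With the enterocyte sum as covariate the differences were -0.38 for Nlrc4 and -0.12 for Nlrp6, and without WT F1 -0.47 and -0.35 (adjusted p 0.0755 and 0.323). Of other cell types 6 of 7 goblet-cell, 3 of 8 acinar and 1 of 4 stromal markers were called lower, and 0, 0 and 1 had differences above 0. Of macrophage and dendritic-cell markers 2 of 12 passed (1 higher, 1 lower). In limma 0 of 13 enterocyte markers did (4 at an unadjusted p below 0.05), with 4 differences above 0. The part of these RNAs in the values of Nlrc4 and Nlrp6 was not tested. Nod2 (0.29, -0.06 to 0.64), Nlrc5 (0.31, -0.21 to 0.83), Nlrp3 (-0.19, -0.52 to 0.13) and Nlrc3 (-0.23, -0.58 to 0.12) had adjusted p from 0.312 to 0.479.

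Eosinophil and neutrophil-type markers moved in the same libraries as the 4 receptors that rose. Of the tested eosinophil markers 3 of 6 were called higher (Prg2 by 2.30, Cd101 by 0.84 and Alox15 by 0.58), and all 6 had differences above 0. Of the neutrophil list 3 of 7 passed, Retnlg and Cxcr2 higher by 1.21 and 0.65 and Mmp8 lower by a difference of -0.92. Lcn2, Ngp, Ltf and Camp averaged 20.8, 42.1, 28.9 and 17.0 normalised counts in Ahr-/- against 8.86, 23.1, 14.8 and 2.06 in WT, and Ly6g, Mpo and Elane 1.10, 1.57 and 0 against 1.38, 6.54 and 0. The part of cell composition in the receptor differences was not tested.

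**Figure D4:**
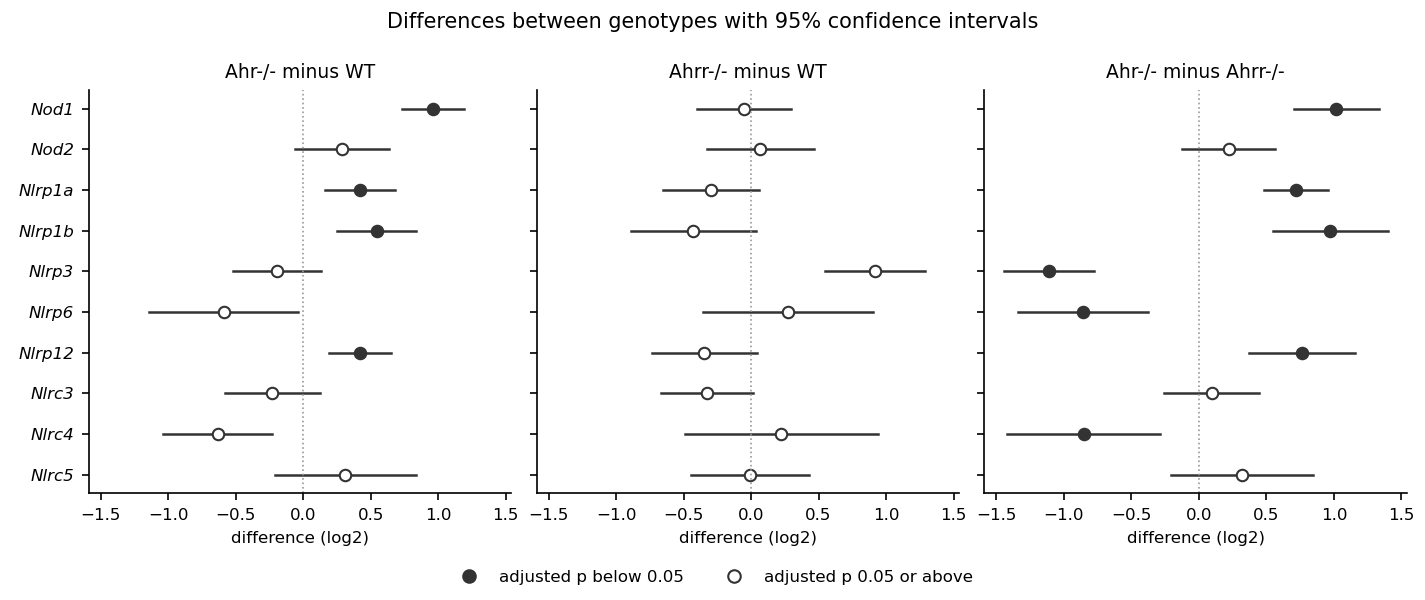
Differences between genotypes for the 10 receptors on the log2 scale (horizontal) with 95% confidence intervals from limma, 6 libraries per genotype, filled points for an adjusted p below 0.05. Against WT, 4 receptors are filled in Ahr-/- and 0 in Ahrr-/-, and between the knockouts 7 are filled, from -1.11 for Nlrp3 to 1.02 for Nod1.

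Around the receptors, the 6 pathway lists held 7, 22, 23, 11, 18 and 7 tested genes. Of these genes 11 passed in Ahr-/- against WT, where 8.84% of all tested genes did. The NOD1 and NOD2 signalling list (2 of 22) and the inflammasome list (2 of 23) lay close to that share. In NOD1 and NOD2 signalling 2 of 22 tested genes did: Ripk2, the kinase directly below both receptors, rose by 0.72 (adjusted p 0.00189, 6 of 6) and the ubiquitin ligase gene Birc3 fell by 0.62 (0.0403, 5 of 6). Ripk2 thus rose in the same libraries as Nod1, to 108 from 46.2 normalised counts on average. Of the other NLR family genes 3 of 7 passed, all higher. They were the pseudogene Nlrp1c-ps by 0.74 (0.00558), and the NAIP sensor genes Naip5 by 0.51 (0.0325) and Naip2 by 0.35 (0.0438), each in 6 of 6 libraries. Naip5 shares 23.8% and Naip2 10.7% of its 75-base windows with other genes, chiefly other Naips, so that their reads are only partly their own. Nlrx1 (0.17, adjusted p 0.547, 5 of 6) did not pass, and Ciita, with an interval of -0.54 to 0.54, did not either.

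In the list of inflammasome assembly and pyroptosis 2 of 23 genes passed, both lower: Mefv, which encodes the sensor pyrin, fell by 0.73 (0.00188) and Hsp90aa1 by 0.63 (0.00615), each in 6 of 6 libraries. The adaptor Pycard differed by -0.52 (adjusted p 0.128, 6 of 6), the protease Casp1 by -0.07 (0.751, 4 of 6) and the pore gene Gsdmd by 0.34 (0.0670, 6 of 6), and none passed. For Nek7, the partner of NLRP3, the interval was -0.29 to 0.29. Of the cytokine and chemokine outputs 4 of 11 passed: Il1b rose by 1.27 (0.00432), Il6 by 1.46 (0.0334) and Cxcl1 by 0.74 (0.0110), while Cxcl3 fell by 2.70 (1.91e-06), each in 6 of 6 libraries. Il18 differed by -0.36 (0.281, 5 of 6). Over their alternatives Pycard ranged from -0.64 to -0.17 and Il18 from -1.07 to -0.0791, with 0 of these fits called. None of 18 genes of NLRC5 partners and MHC class I targets and none of 7 genes of STING and MAVS signalling passed in limma, with 2 and 0 at an unadjusted p below 0.05.

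Among these calls, those of Ripk2, Mefv, Hsp90aa1, Nlrp1c-ps, Cxcl1, Cxcl3 and Il1b held in each of the 12 fits that left out 1 library. Naip2, Naip5 and Birc3 passed in 3 of 12 such fits each, and Il6 in 6. Over all 24 alternatives Naip2 and Birc3 passed in 9 each, Naip5 in 11, Il6 in 15 and Il1b in 24. The differences ranged there from 0.32 to 0.61 for Naip5, from 0.75 to 1.97 for Il6 and from 0.81 to 1.42 for Il1b.

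**Figure D5:**
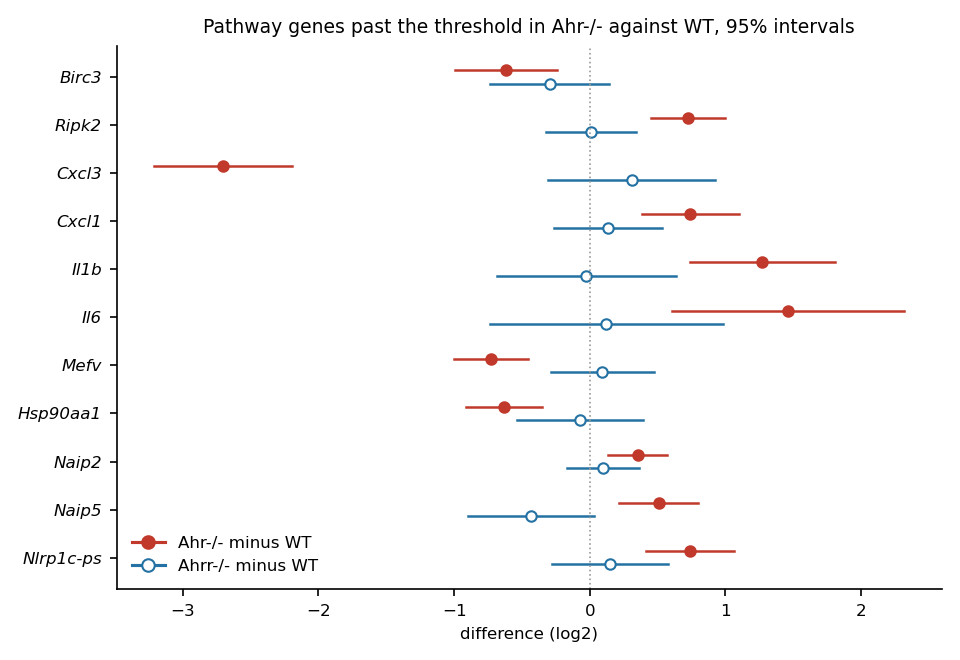
Differences on the log2 scale (horizontal) with 95% confidence intervals for the 11 pathway genes that passed in Ahr-/- against WT, in Ahr-/- minus WT (filled) and Ahrr-/- minus WT (open), 6 libraries per genotype. Both comparisons use the same 6 WT libraries; Ripk2 stands at 0.72 and 0.01, and Cxcl3 at -2.70 in Ahr-/-.

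The next comparison asked what loss of the repressor changes. No receptor passed in Ahrr-/- against WT. The inflammasome sensor Nlrp3 was nearest, with 110 against 36.2 normalised counts on average, and the NLRP1 paralogues and Nlrp12 had differences below 0. Without the 5 libraries of highest enterocyte sum those of Nlrp1a and Nlrp12 turned to 0.10 each and that of Nod1 went from -0.05 to 0.48, none of them called. The difference of Nlrp1b ranged from -0.54 to -0.18 over its alternatives. This comparison shares its 6 WT libraries with the first, and the values of the 2 are therefore not independent.

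In limma 0 of 10 receptors passed, 1 had an unadjusted p below 0.05 and 0 passed by voom, against 0.0779% of 11546 tested genes, 9 in all and all higher. Their groups overlapped in 10 of 10 cases, with 0.459% of tested genes, 53, not overlapping. The median difference was -0.03 for the receptors and 0.01 for all tested genes. Nlrp3 was higher by 0.92 (SE 0.17, interval 0.55 to 1.29), with 6 of 6 libraries above the WT mean, an unadjusted p of 9.76e-05 in limma and an adjusted p of 0.0939. Nlrp3 passed in 2 of 23 alternatives. Without Ahrr-/- M1, the low library, it differed by 1.04 with an adjusted p of 0.0288. On log2(normalised count + 1) the difference of Nlrp3 was 1.65 and by voom 1.67, since the variance-stabilised scale narrows differences between low counts. It also passed with all 18 libraries in 1 fit (0.0172), and its adjusted p ranged from 0.0172 to 0.957 over 23 alternatives. With the enterocyte sum as covariate the difference of Nlrp3 was 0.93. Without the 5 libraries of highest sum it was 0.999 (adjusted p 0.957 in limma, from 5 WT and 2 Ahrr-/- libraries, the latter both from females).

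The other 9 receptors had adjusted p of at least 0.671. Nlrp1b differed by -0.43 (interval -0.89 to 0.03), Nlrp12 by -0.35 (-0.74 to 0.04), Nlrc3 by -0.32 (-0.66 to 0.02) and Nlrp1a by -0.30 (-0.65 to 0.06). The peptidoglycan sensors Nod1 and Nod2 were at -0.05 (-0.40 to 0.29) and 0.07 (-0.33 to 0.46), and Nlrc5 at -0.01 (-0.44 to 0.43). These values moved with the libraries used: without the 5 of highest enterocyte sum they were 0.48, 0.44 and -0.49. Nlrp6 (0.27, -0.36 to 0.90) and Nlrc4 (0.22, -0.49 to 0.94) had the widest intervals. These 2 receptors were high in the Ahrr-/- libraries with high enterocyte sums, and with that sum as covariate their differences were -0.17 and -0.28. Without the 5 libraries Nlrp6 was at 0.0638 and Nlrc4 at -0.85 (adjusted p 0.995 and 0.957).

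None of the 90 tested pathway genes passed in Ahrr-/- against WT in limma, and 3 had an unadjusted p below 0.05. Ripk2 differed by 0.01, Il1b by -0.03, Pycard by 0.36 and Il18 by 0.59, with adjusted p from 0.671 to 0.989. Among markers, 2 of 8 tested neutrophil genes passed, S100a8 higher by 2.06 and S100a9 by 2.10, in 6 of 6 libraries each. By sign alone, 7 of 8 had differences above 0. In limma 0 of 13 enterocyte, 0 of 7 goblet-cell and 0 of 7 Paneth-cell markers passed, with 4, 0 and 7 at an unadjusted p below 0.05. All of them were higher in Ahrr-/-, with median differences of 0.76, 0.67 and 1.46. Markers of macrophages and dendritic cells were higher in 11 of 14 cases, of stroma in 8 of 9 and of B and plasma cells in 4 of 4, and acinar markers were lower in 9 of 10. In limma 0 of these passed, with 4, 4, 3 and 5 at an unadjusted p below 0.05, and their part in the difference of Nlrp3 was not tested.

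The direct comparison of the knockouts, which uses no WT library, asked where loss of the receptor and loss of its repressor differ. Nod1, Nlrp1a, Nlrp1b and Nlrp12 were higher in Ahr-/-, and Nlrp3, Nlrp6 and Nlrc4 were higher in Ahrr-/- libraries. In all 7 of 10 receptors passed, 4 higher and 3 lower in Ahr-/-, against 14.9% of 11474 tested genes, 1708 in all. With the enterocyte sum as covariate 3 receptors passed, Nlrp3, Nod1 and Nlrp1a, and Nlrp6 and Nlrc4 did not, as given below. The median absolute difference was 0.81 for the receptors and 0.21 for all tested genes.

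Nlrp3 differed by -1.11 in Ahr-/- relative to Ahrr-/- (SE 0.16, interval -1.45 to -0.78, adjusted p 0.000427), with 25.4 against 110 normalised counts on average. On log2(normalised count + 1) its difference was -2.05 and by voom -2.16. Nod1 differed by 1.02 (SE 0.15, 0.70 to 1.33, 0.000549). Nlrp1b differed by 0.97 (0.55 to 1.40, adjusted p 0.00683), Nlrp12 by 0.76 (0.37 to 1.16, 0.0158) and Nlrp1a by 0.72 (0.48 to 0.95, 0.000956). Nlrp6, best known from epithelium, and the NAIP partner Nlrc4 were lower, Nlrp6 by a difference of -0.86 (-1.34 to -0.38, 0.0223) and Nlrc4 by -0.85 (-1.42 to -0.29, 0.0440). Each of the 7 held its direction in 6 of 6 Ahr-/- libraries. The ranges did not overlap for 4 receptors, Nod1, Nlrp1a, Nlrp1b and Nlrp3, and 4.61% of tested genes, 529, did likewise. Nod2 (0.22, adjusted p 0.363, 5 of 6), Nlrc3 (0.09, 0.723, 3 of 6) and Nlrc5 (0.32, 0.392, 4 of 6) did not pass.

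Markers of several cell types moved with these differences. Between the knockouts 5 of 13 enterocyte, 6 of 7 goblet-cell and 7 of 7 Paneth-cell markers were lower in Ahr-/-, with enterocyte sums of 3773 to 10203 in Ahr-/- and 6272 to 32408 in Ahrr-/- libraries. Eosinophil markers were called higher in 4 of 6 cases, and all 6 had differences above 0. Neutrophil markers passed in 4 of 8 (3 lower) and macrophage and dendritic-cell markers in 3 of 14 (2 lower). Called lower were 2 of 4 B- and plasma-cell, 2 of 9 stromal and 1 of 4 acinar markers, and 0 of these lists' markers had a difference above 0. Their part in the receptor differences was not tested. With the enterocyte sum as covariate 3 of 10 receptors passed: Nlrp3 (-1.09, adjusted p 0.00688), Nod1 (0.73, 0.0216) and Nlrp1a (0.56, 0.0368). The differences of the other 4 shrank without changing sign and did not pass: Nlrp1b to 0.55 (0.262), Nlrp12 to 0.28 (0.536), Nlrp6 to -0.20 (0.735) and Nlrc4 to -0.05 (0.966). Without the 5 libraries of highest sum, which leaves 2 Ahrr-/- libraries, Nlrp3 alone passed (-1.28, 0.00318), and Nod1 differed by 0.64 (0.0720), Nlrp1b by 0.55 (0.195), Nlrp1a by 0.45 (0.164), Nlrp12 by 0.32 (0.508), Nlrp6 by -0.37 (0.663) and Nlrc4 by -0.01 (0.991). The difference of Nlrp3 was therefore as large without those libraries, while those of the other 6 that had passed were smaller and no longer called. The 2 Ahrr-/- libraries left, F1 and F2, are both from females, so that this fit holds no Ahrr-/- male. Nlrp3 averaged 7.64 in Ahrr-/- females and 7.07 in Ahrr-/- males.

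Single libraries ended the calls of Nlrp6 and Nlrc4, and so did other fits. Nlrp6 passed in 16 and Nlrc4 in 9 of 23 alternatives, and in 7 and 4 of their 12 fits without 1 library. Nlrp6 missed the threshold without Ahr-/- F1 (adjusted p 0.0542), F2 (0.0552), M1 (0.0533) or M3 (0.0606) or without Ahrr-/- M3 (0.0543), within 0.00700 to 0.735 over its alternatives. Nlrc4 missed it without Ahr-/- F1 (0.0629), F2 (0.0877), M1 (0.0846), M2 (0.0804) or M3 (0.107) and without Ahrr-/- F3 (0.0832), M1 (0.0731) or M3 (0.103), within 0.00798 to 0.991. The other 5 receptor calls held in each of their 12 fits without 1 library.

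Pathway genes that passed between the knockouts numbered 12 of 90, where 14.9% of all tested genes passed. In NOD1 and NOD2 signalling 2 of 23 did, Ripk2 higher in Ahr-/- by 0.72 (adjusted p 0.00524) and the peptide transporter gene Slc15a3 at -0.82 (0.00309). Naip5 was the 1 of 8 other NLR family genes, at 0.94 (0.0128). In the inflammasome list 3 of 23 passed, Gsdmd at 0.67 (0.0154), Mefv at -0.82 (0.00338) and Pycard at -0.89 (0.0227). Of the outputs 5 of 11 passed, Il1b at 1.297 (0.00285), Il6 at 1.34 (0.0240), Cxcl1 at 0.60 (0.0343), Il18 at -0.95 (0.0367) and Cxcl3 at -3.01 (1.35e-06). Tap2, at 0.52 (0.0156), was the 1 of 18 NLRC5-linked genes, and 0 of 7 STING and MAVS genes passed in limma, 2 of them at an unadjusted p below 0.05. All of these differences held in 6 of 6 Ahr-/- libraries. Of the 12 fits that left out 1 library, Pycard passed in 8, Il6 in 7, Cxcl1 in 5, Il18 in 4 and the other 8 genes in all 12. Of these genes only Slc15a3, Mefv and Cxcl3 still passed with the enterocyte sum as covariate, and these and Ripk2 without the 5 libraries. Ripk2 passed in 22 of 23 alternatives, with differences of 0.63 to 1.26 and an adjusted p of at most 0.103. Il6 ranged from 0.89 to 1.68 and Cxcl1 from 0.38 to 1.13 over their alternatives. The covariate took Il18 to -0.03 (adjusted p 0.972), Pycard to -0.21 (0.733), Gsdmd to 0.35 (0.429), Tap2 to 0.31 (0.406), Naip5 to 0.56 (0.353) and Il1b to 0.88 (0.0718).

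Sex was compared over all 18 libraries with genotype as a covariate. Of the receptors 0 of 10 passed between females and males in limma, 1 had an unadjusted p below 0.05 and 0 passed by voom, against 3.06% of 11468 tested genes, 351 in all, 282 higher and 69 lower in females. The 1 receptor was Nlrp3, at 0.39 in females relative to males (interval 0.12 to 0.66, unadjusted p 0.00775 and adjusted p 0.111 in limma, 6 of 9 females above the male mean). Nlrc4 differed by -0.45 (-0.95 to 0.05, adjusted p 0.316, 7 of 9 below), a value that went to -0.0260 with the enterocyte sum as covariate and to -0.26 without the 5 libraries of highest sum. Nlrp3 stayed at 0.40 and 0.28 in these fits. The other 8 had adjusted p of at least 0.398. The median absolute difference was 0.13 for the receptors and 0.13 for all tested genes.

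Of the tested genes of the 6 pathway lists 9 of 90 passed between the sexes, where 3.06% of all tested genes did. Of the outputs 4 of 11 passed, all higher in females. They were the NF-kB inhibitor gene Nfkbia at 0.85 (adjusted p 0.00798, 9 of 9), Tnf at 0.87 (0.0129, 9 of 9), Cxcl2 at 0.77 (0.0364, 9 of 9) and Il6 at 1.31 (0.0382, 7 of 9). Of 18 NLRC5 partners and MHC class I targets 4 passed, all higher in females. They were H2-Q7 at 1.13 (0.0175, 8 of 9), H2-Q6 at 1.07 (0.0345, 7 of 9), H2-Q4 at 0.61 (0.0139, 9 of 9) and H2-K1 at 0.60 (0.0345, 9 of 9). Nlrc5 itself differed by 0.15 (adjusted p 0.730, 6 of 9). The membrane-rupture gene Ninj1 was the 1 of 23 inflammasome genes, higher by 0.77 (0.0240, 9 of 9). Of the 18 fits without 1 library, Nfkbia, Tnf, H2-Q4 and H2-Q7 passed in all 18, Ninj1 in 14, H2-K1 in 9, Il6 and H2-Q6 in 8 and Cxcl2 in 6. When the enterocyte sum was a covariate, only Nfkbia (adjusted p 0.0202), Tnf (0.0492) and H2-Q4 (0.0485) passed. H2-Q7 passed in 26 of 27 alternatives, with a difference of at least 0.88 and an adjusted p of at most 0.0601. The lowest differences over all alternatives were 0.90 for Il6, 0.76 for H2-Q6, 0.54 for Ninj1, 0.51 for Cxcl2 and 0.39 for H2-K1. All 13 enterocyte markers were lower in females (median -0.53), 0 of them called in limma and 4 at an unadjusted p below 0.05, and all 7 goblet-cell markers were lower too, 0 of them called in limma and 0 at an unadjusted p below 0.05. Of other markers 2 of 13 for macrophages and dendritic cells were called lower (H2-Aa and H2-Ab1). Called higher were 1 of 7 for neutrophils (Ltf) and 1 of 1 for mast cells (Kit). By sign alone, 3 of 13 macrophage and dendritic-cell and 6 of 7 neutrophil markers had differences above 0. The part of these cell types in the pathway differences was not tested. The other 3 lists had 0 of 8, 0 of 23 and 0 of 7 genes called in limma, with 2, 6 and 0 at an unadjusted p below 0.05.

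Whether a genotype difference depended on sex was tested as an interaction. For Ahr-/- and WT 0 of 10 receptors passed in limma, 2 had an unadjusted p below 0.05, and 0% of 11346 genes passed, 533 of them at an unadjusted p below 0.05 and 549 by voom. For Ahrr-/- and WT 0 of 10 passed in limma, 3 had an unadjusted p below 0.05, and 0% of 11546 genes passed, 544 and 457 of them below 0.05 unadjusted in limma and by voom. Nlrc4 had the largest of these terms, -0.95 (unadjusted p 0.00748 and adjusted p 0.954 in limma) and -1.53 (0.0150 and 0.727). Its Ahr-/- females averaged 6.91 and males 7.49, its Ahrr-/- females 7.48 and males 8.63, and its WT females 8.02 and males 7.65. Nlrp1a had terms of 0.52 (unadjusted p 0.0296 in limma) and 0.80 (0.00973), with WT females at 8.12 and males at 8.64 and Ahr-/- at 8.80 in both sexes. Nod1 had 0.63 in the Ahrr-/- comparison (unadjusted p 0.0467 in limma). Without WT F1, at 8.51 for Nlrc4 where the other WT females were at 7.77 and 7.78, its terms were -0.70 and -1.28. A covariate for the enterocyte sum gave -0.71 and -0.79. All 3 Ahrr-/- males and 1 of 3 Ahrr-/- females are among the 5 libraries of highest sum, and the part of the sum in the Ahrr-/- term was not tested further.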

How the data were processed

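The deposited table holds variance-stabilised values on a log2 scale, which the authors made with DESeq2 from gene counts of 18 libraries (the labels name STAR 2.5.2, RSEM 1.3.0 and R 4.0.3). Its lowest value marks genes without a read. Inverting the transform gave normalised counts and whole counts, 100% of them whole within a tolerance of 0.0001; these served the levels per kb, the depths and the voom fits.

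Tests used limma 3.58.1 in R 4.3.3 on the deposited log2 values, with a mean-variance trend, sex (or genotype) as covariate and Benjamini-Hochberg adjustment over all genes whose mean was at least 1 above the lowest value; all 10 receptors passed this filter in each comparison. A difference with an adjusted p below 0.05 is called. By voom 989, 4, 1728 and 340 genes were called in Ahr-/- against WT, Ahrr-/- against WT, Ahr-/- against Ahrr-/- and female against male. Summaries were made in Python 3.11.15 (pandas 2.3.3, numpy 2.4.6 and scipy 1.17.1) and plots with matplotlib 3.10.9. Exon lengths, positions and shared 75-base windows came from GENCODE M21 on GRCm38, and promoters from RefSeq.

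The members and all gene lists were chosen with earlier results of these data known. Named were all 10 receptors, Ahr and Ahrr. Of each of 6 pathway lists each called gene was named (the 6 with the largest difference if more), with up to 4 uncalled genes the list is best known for. Of receptors called in a knockout comparison with WT, and of the 3 with the highest WT level per kb, the 3 genes with the highest Pearson correlation were named. Alternatives were other minimum means (none, or 3), median centring, quantile normalisation, log2(normalised count + 1), voom, all 18 libraries in 1 fit, no sex covariate, a replicate block and leaving out each library. The enterocyte sum as covariate, leaving out the 5 libraries with the highest sum and leaving out the F3 libraries of WT and Ahr-/- were added after seeing the data.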

Additional observations from a re-analysis of the deposited data

Results flagged for a closer look

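In 36 groups of 6 libraries (the 10 receptors, Ahr and Ahrr in 3 genotypes) the highest or lowest library was compared with the nearest of the others, and 2 groups held a library that stood far apart. Chance gives about 1 in 20 such groups. Nlrc4 in WT F1 was at 8.51 where the other WT libraries were between 7.47 and 7.81, a gap of 0.669 of the whole range and above the limit of Dixon's test for 6 libraries. Nlrc3 in Ahrr-/- M1 was at 5.99 where the others were between 6.32 and 6.48, a gap of 0.668 of the range. WT F1 also had the highest enterocyte sum of the WT libraries, 19623, and Ahrr-/- M1 the highest of all, 32408; the part of these sums in both values was not tested. In none of the 36 comparisons between genotypes did all females move one way and all males the other.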

How the results depend on the processing

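Of 1105 recomputed receptor differences, 997 kept their direction and their side of the threshold, 54 kept their direction and lost the call, 8 gained it and 46 changed sign. The 46 changes of sign fell on 15 of 46 receptor differences and on 0 of the 11 that were called. Where a value moved, the cause was not tested.

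Counts that moved by over 1.5 times were these. In Ahr-/- against WT the receptors called numbered 1 with all 18 libraries in 1 fit and 2 with the enterocyte covariate. The pathway genes called numbered 7 with no minimum mean, with a minimum of 3 and with all 18 libraries, and all genes called numbered 553 with all 18 libraries and 586 without the F3 libraries. In Ahrr-/- against WT 1 receptor, Nlrp3, was called with all 18 libraries. All genes called there numbered 4 with no minimum, median centring, log2 counts or voom, 5 with a minimum of 3 or quantile normalisation, 14 with all 18 libraries, 17 with the enterocyte covariate and 2 without the 5 libraries. In Ahr-/- against Ahrr-/- a minimum of 3 gave 4 receptors, 7 pathway genes and 828 genes in all, and no sex covariate gave 994 genes. The enterocyte covariate gave 3 receptors, 3 pathway genes and 310 genes, and leaving out the 5 libraries 1, 4 and 290. In female against male no minimum gave 4 pathway genes and 163 genes, and the covariate 3 and 126.

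The values do not settle whether samples of the same replicate number belong together. Correlations between such samples, after removing the mean of each genotype and sex, ran from -0.265 to 0.473 for WT and Ahr-/-. They ran from -0.592 to 0.335 for WT and Ahrr-/- and from -0.336 to 0.325 for the knockouts. In each comparison 2 of 6 samples correlated best with their own number. WT F3 and Ahr-/- F3 shared the highest numbers of genes with counts, 20244 and 19694. A replicate block gave 3, 0 and 7 receptors in the 3 genotype comparisons, and 918, 4 and 1946 genes in all.

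Changes of sign touched only uncalled differences. In Ahr-/- against WT, Ciita went to -0.19 with log2 counts and -0.0268 by voom, and Casp1 to 0.0441 with the covariate. Nek7 went to 0.0180 with median centring, 0.000398 with quantile normalisation, 0.00222 with log2 counts, 0.00380 by voom and 0.00657 without the F3 libraries. In Ahrr-/- against WT the covariate gave 0.10 for Nod1, -0.17 for Nlrp6, -0.28 for Nlrc4, 0.11 for Nlrc5, 0.11 for Ahr, -0.0570 for Pycard and 0.33 for Il1b. Leaving out the 5 libraries gave 0.48 for Nod1, 0.10 for Nlrp1a, 0.10 for Nlrp12, -0.85 for Nlrc4, 0.28 for Ahr, -0.20 for Ripk2, -0.0448 for Pycard and 0.31 for Il1b. Nlrc5 went to 0.0209 by voom and 0.0630 without the F3 libraries, Ripk2 to -0.0374 with median centring and -0.0533 with quantile normalisation, and Il1b to 0.0539 with quantile normalisation. In Ahr-/- against Ahrr-/- the covariate gave -0.0913 for Nod2 and -0.0260 for Nlrc5, and leaving out the 5 libraries -0.25 for Nlrc3. In female against male the covariate gave -0.00668 for Nod1, 0.31 for Nlrp6, -0.0897 for Nlrp12 and -0.000311 for Nlrc5. Leaving out the 5 libraries gave -0.0617 for Nod1 and -0.0360 for Nlrp12. Nlrp1b went to 0.0334 with median centring, 0.00906 with log2 counts, 0.00901 by voom and 0.0756 without the F3 libraries.

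Leaving out 1 library at a time, the receptors called in Ahr-/- against WT ranged from 1 (without Ahr-/- F1 or F2) to 5, with 2 without WT M3. The pathway genes ranged from 7 (without WT F3, Ahr-/- F1 or Ahr-/- M2) to 13 and all genes from 623 (without Ahr-/- F1) to 1124. In Ahrr-/- against WT the receptors called ranged from 0 to 1 (without Ahrr-/- M1) and all genes from 4 to 25 (without Ahrr-/- F1). They were 4 without WT F1, F2, M2 or M3 or Ahrr-/- F2, M2 or M3, and 5 without Ahrr-/- F3. In Ahr-/- against Ahrr-/- all genes ranged from 818 (without Ahr-/- M3) to 2574 (without Ahrr-/- F1), with 907, 970, 839 and 933 without Ahr-/- F1, F2, M1 and M2 and 1001 and 923 without Ahrr-/- F3 and M3. In female against male all genes ranged from 142 (without Ahr-/- M1) to 733 (without WT F1), with 595 without WT M1, 577 without Ahrr-/- F3 and 159 to 211 without WT F2 or M3, Ahr-/- F1, F2, M2 or M3, or Ahrr-/- F1, F2 or M3. Pathway genes ranged there from 4 (without WT M3 or Ahr-/- F2, M1 or M2) to 15 (without WT F1), with 5 without WT F2, Ahr-/- F1 or Ahrr-/- F1 or M3.

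Differences that changed sign on leaving out 1 library ranged as follows. In Ahr-/- against WT they were -0.13 to 0.00333 for Casp1, -0.18 to 0.15 for Ciita and -0.10 to 0.0852 for Nek7. In Ahrr-/- against WT they were -0.13 to 0.0441 for Nod1, -0.0462 to 0.18 for Nod2, -0.17 to 0.0939 for Nlrc5, -0.0616 to 0.0816 for Ripk2 and -0.21 to 0.14 for Il1b. Nlrc3 ranged from -0.00813 to 0.17 between the knockouts, and Nlrp1b from -0.12 to 0.0639 between the sexes.

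A replicate block, no sex covariate and all 18 libraries in 1 fit were not run for female against male, which already uses all libraries, and no sex covariate was not run for the interactions. Without the 5 libraries the Ahrr-/- interaction could not be fitted, since 0 Ahrr-/- males remain. Nlrp3, Nlrc3, Nlrc4 and Nlrc5 do not reach the minimum of 3 above the lowest value in any comparison, nor does Nlrp6 in Ahr-/- against WT or against Ahrr-/-, and they had no value there. A difference that missed the threshold does not show equal levels.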
